A study of Mus musculus with 2 samples.

Results

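Open chromatin was examined at 8 connexin genes of the mouse, chosen by name. *Gja1*, *Gja4*, *Gja5* and *Gjc1* are the members known from the heart and its vessels and are called cardiovascular here, while *Gja3*, *Gjb2*, *Gjb6* and *Gjd2* are known from other tissues. They are 8 of 21938 protein-coding genes on the main chromosomes of the GENCODE M21 annotation (GRCm38/mm10). The data are the ATAC-seq peak lists of wildtype FVB hearts at E11.5, in 2 replicates that were each made from 2 pooled hearts, and both replicates form a single group without a treated or mutant arm. ATAC-seq marks accessible DNA through a transposase that inserts sequencing adapters where chromatin is open.

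Connexins are the subunits of gap junction channels. A hemichannel of connexins in one cell docks to a hemichannel of its neighbour, and the channel lets ions and small metabolites pass. In the heart, such channels carry the electrical impulse from cell to cell. *Gja1* encodes the main connexin of working myocardium, *Gja5* that of atrial myocardium, the ventricular conduction system and arterial endothelium, *Gja4* an endothelial connexin and *Gjc1* a connexin of the early heart tube and the conduction system. *Gja3* is best known from the lens, *Gjb2* and *Gjb6* from the cochlea and from epithelia, and *Gjd2* from neurons.

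The sequences below come from starts and distal regions that are compared further on. The first 4 are promoters, the 250 bases before a RefSeq start (GRCm38.p6), written along the strand of the gene with CpG dinucleotides in capitals. They are shown for the contrast in CpG content between *Gjd2* and the cardiovascular *Gja1* and *Gja5*, and because *Gjb6* had no accessible region at any start. The *Gja1* promoter lies on the plus strand at chr10:56377050-56377299 and that of *Gja5*, at its downstream start, on the plus strand at chr3:97032152-97032401. The *Gjd2* promoter lies on the minus strand at chr2:114013620-114013869 and the *Gjb6* promoter on the minus strand at chr14:57133612-57133861.
Gja1: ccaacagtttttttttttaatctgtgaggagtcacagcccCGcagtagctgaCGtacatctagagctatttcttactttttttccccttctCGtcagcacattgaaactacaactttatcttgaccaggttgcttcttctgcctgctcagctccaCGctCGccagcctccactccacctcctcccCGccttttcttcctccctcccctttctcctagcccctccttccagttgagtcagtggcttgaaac
Gja5: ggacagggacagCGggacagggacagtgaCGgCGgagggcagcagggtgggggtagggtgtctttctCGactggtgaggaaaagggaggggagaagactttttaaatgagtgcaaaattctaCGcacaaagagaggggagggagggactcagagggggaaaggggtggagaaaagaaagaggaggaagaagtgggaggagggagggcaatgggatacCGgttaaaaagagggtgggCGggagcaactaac
Gjd2: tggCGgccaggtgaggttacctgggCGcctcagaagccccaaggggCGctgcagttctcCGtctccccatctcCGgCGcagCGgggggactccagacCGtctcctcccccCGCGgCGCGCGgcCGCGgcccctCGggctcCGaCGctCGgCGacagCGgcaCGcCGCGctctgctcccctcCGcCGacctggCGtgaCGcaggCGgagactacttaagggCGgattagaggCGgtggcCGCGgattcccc
Gjb6: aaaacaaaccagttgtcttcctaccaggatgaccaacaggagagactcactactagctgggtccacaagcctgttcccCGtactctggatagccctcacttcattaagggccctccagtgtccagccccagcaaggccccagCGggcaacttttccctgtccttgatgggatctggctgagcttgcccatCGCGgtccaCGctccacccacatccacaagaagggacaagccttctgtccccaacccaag

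The other 4 sequences are windows of 151 bases around the replicate 1 summit of the strongest distal region of *Gja1*, *Gja4*, *Gja5* and *Gjd2*, written on the plus strand with any letters of the searched motifs in capitals. They lie at chr10:56385431-56385581 in an intron of *Gja1*, at chr4:127289429-127289579 between genes downstream of *Gja4*, at chr3:97062968-97063118 in an intron of *Gja5*, and at chr2:113980767-113980917 between genes downstream of *Gjd2*. The capitals in the *Gja5* and *Gjd2* windows are the letters TNAAGTG of NKX2-5, on the minus and the plus strand respectively.
Gja1 distal: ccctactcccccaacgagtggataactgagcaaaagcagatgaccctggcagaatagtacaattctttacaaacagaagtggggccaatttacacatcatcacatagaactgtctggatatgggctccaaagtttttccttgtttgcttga
Gja4 distal: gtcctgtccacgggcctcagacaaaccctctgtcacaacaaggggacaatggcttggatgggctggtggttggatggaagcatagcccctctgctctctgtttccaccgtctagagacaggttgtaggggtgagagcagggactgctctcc
Gja5 distal: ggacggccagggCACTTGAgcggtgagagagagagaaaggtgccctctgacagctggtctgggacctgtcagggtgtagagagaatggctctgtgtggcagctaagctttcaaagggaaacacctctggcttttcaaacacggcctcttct
Gjd2 distal: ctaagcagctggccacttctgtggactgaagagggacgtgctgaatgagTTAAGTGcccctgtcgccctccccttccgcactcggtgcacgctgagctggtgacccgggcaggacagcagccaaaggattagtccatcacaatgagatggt

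Replicate 1 held 118027 peaks and replicate 2 held 114783. A region counted as shared where a peak of replicate 1 and a peak of replicate 2 overlapped by at least 1 bp, and 98924 shared regions resulted. Each value below is a fold enrichment, the pileup of reads at a summit over one genome-wide background, as the authors' peak caller gave it. It moved in steps of 0.272 in replicate 1 and 0.251 in replicate 2, so that equal values recur. The lowest value listed was 2.72 in replicate 1 and 2.51 in replicate 2. The lists carry no read totals, and no counting interval was computed. Marker genes fixed for the cell types that a dissected heart can hold had shared regions within 1 kb of an annotated start in 7 of 7 cardiomyocyte genes, 7 of 7 endothelial and endocardial genes, 5 of 5 epicardial genes and 4 of 5 blood genes. The same was found for 0 of 5 neural genes, 1 of 3 skeletal muscle genes and 2 of 5 genes of lens and surface epithelium. Over all protein-coding genes the share was 67.6%, so counts from lists this short say little about cell content. The hearts were whole, so a region open in few cells and a region weakly open in many cannot be told apart.

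All 4 cardiovascular members had a shared region within 1 kb of an annotated start, as did 3 of the other 4. Of all protein-coding genes, 67.6% had one. The exception was *Gjb6*, none of whose 4 annotated starts lay near a peak shared by both replicates. With 4 and 3 genes, these counts do not separate the groups. The strength of the regions differed more. The highest start values of the cardiovascular members had a median of 16.4 in replicate 1 and 15.2 in replicate 2, and those of the 3 other members with a region had a median of 6.52 and 7.04. The groups nevertheless overlapped, because *Gjc1* was low. Over the 14820 genes with a region at a start, the median of the highest start value was 24.4 in replicate 1 and 24.6 in replicate 2, above 6 of these 7 members.

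**Figure D1:**
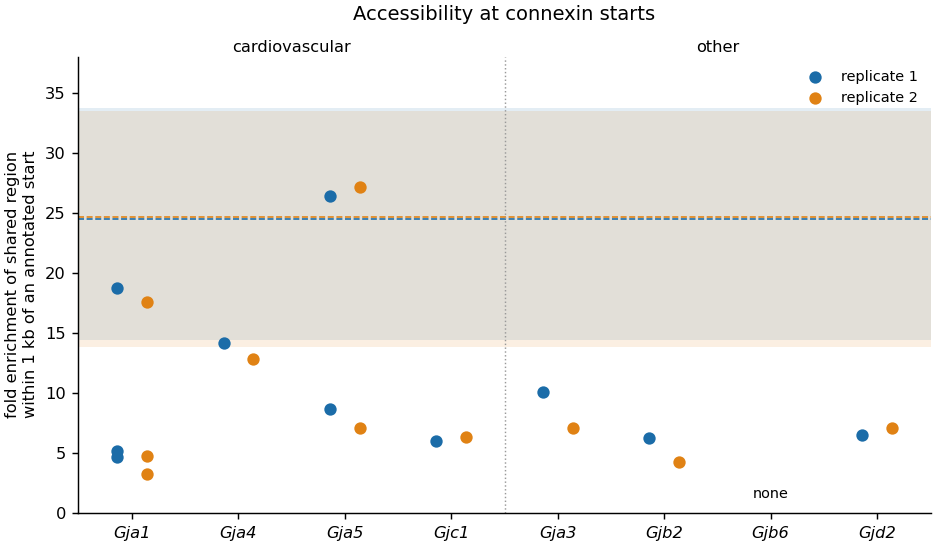
Fold enrichment (linear axis) of each shared region within 1 kb of an annotated start of the 8 connexin genes, with replicate 1 in blue and replicate 2 in orange. Dashed lines and shaded bands are the median and quartiles of the highest start value over the 14820 protein-coding genes with such a region. The upper *Gja5* pair, 26.3 and 27.2, belongs to a region that also holds 2 starts of *Gpr89*, and *Gjb6* has no point.

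*Gja5* had the highest start value, 26.3 in replicate 1 and 27.2 in replicate 2, but the region behind it is also the promoter region of another gene. It spans 830 bp (chr3:96904735-96905564) at the upstream *Gja5* start, which 1 coding transcript uses, and does not reach that start itself. Its summits lay 541 and 543 bp into *Gja5*, in an exon outside the coding sequence. It covers 2 annotated starts of *Gpr89*, a Golgi pH regulator gene on the opposite strand. Both summits were closer to these, at 78 and 76 bp from the nearer one and at 112 and 110 bp from the other. Peak lists cannot say which of these starts the accessibility belongs to.

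The downstream *Gja5* start, 97032416, is used by 2 coding transcripts and lies inside a separate region of 527 bp (chr3:97032095-97032621). That region measured 8.69 in replicate 1 and 7.04 in replicate 2. Both replicates thus gave lower values here than at the *Gpr89* region. Taken at this start, *Gja5* stood below *Gja3* by mean and was equal to it in replicate 2. The median of the cardiovascular members was then 11.4 in replicate 1 and 9.93 in replicate 2, still above the 6.52 and 7.04 of the other members.

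*Gja1* had a start value of 18.7 in replicate 1 and 17.6 in replicate 2. One region of 2662 bp (chr10:56377008-56379669) covered all 6 annotated starts. It was longer than 96.7% of shared regions at starts, whose median length was 853 bp. Its summits lay 46 and 17 bp upstream of the nearest annotated start. Weaker regions flanked it on both sides, with 5.16 and 4.78 upstream and with 4.62 and 3.27 downstream.

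*Gja4* has a single annotated start. The region over it (chr4:127313767-127314361, 595 bp) measured 14.1 in replicate 1 and 12.8 in replicate 2, with summits 26 and 66 bp upstream. In both replicates, *Gja4* stood below *Gja1* and above *Gjc1* and every other member with a region at a start except *Gja5*.

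*Gjc1* was the weakest cardiovascular member, with 5.98 in replicate 1 and 6.28 in replicate 2. Its region (chr11:102818782-102819844, 1063 bp) covered 3 of 5 annotated starts, the upstream group, and the other 2 starts, within the gene, had no shared region within 1 kb. The *Gjc1* value ranked above only 5.11% of genes with a start region in replicate 1 and above 7.75% in replicate 2. In replicate 1 it was below all 3 non-cardiovascular members with a region, and in replicate 2 it lay between *Gjb2* and the other two.

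*Gja3* was the strongest of the other members, at 10.1 in replicate 1 and 7.04 in replicate 2. Both of its annotated starts lay in one region of 875 bp (chr14:57057525-57058399). *Gjd2* measured 6.52 in replicate 1 and 7.04 in replicate 2 over its single start (chr2:114013139-114013760, 622 bp), a region that also lies within 1 kb of a start of the non-coding gene *A530058N18Rik*. *Gjb2* measured 6.25 and 4.27 (chr14:57104135-57104758, 624 bp). *Gja3* and *Gjd2* had the same value in replicate 2, and *Gjb2* stood above *Gjc1* in replicate 1 only, so the order among *Gja3*, *Gjd2*, *Gjc1* and *Gjb2* did not hold across the replicates. The order *Gja5*, *Gja1*, *Gja4*, and then the rest, held in both, with *Gja5* taken at the region shared with *Gpr89*. Taken at its downstream start, with 8.69 and 7.04, *Gja5* stood below *Gja1* and *Gja4* in both.

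*Gjb6* starts lie in sequence to which reads can be mapped. Of the 32-base words in the 4 windows of 1 kb on each side of its starts, between 99.8% and 100% occur once in the genome. The nearest shared region upstream lay 12.3 kb away. A region below the limit of the peak caller was not detectable in these lists. *Gjb2*, whose start region was the weakest of the 7 by the mean of both replicates, lost it under a q-value limit of 1e-10, and the other 6 members kept theirs.

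The promoters also differed in sequence. Those of *Gja1*, *Gja4* and *Gja5* held 6, 9 and 7 CpG dinucleotides in 250 bases, close to the median of 6 over 32851 RefSeq promoters. The promoter of *Gjb6* held 5. Those of *Gja3*, which has 2 in the table, held 29 and 26, that of *Gjb2* held 18 and that of *Gjd2* held 33. The 3 non-cardiovascular members with a region at a start thus had more CpG in their promoters than *Gja1*, *Gja4* and *Gja5*. No RefSeq promoter of *Gjc1* was analysed here. In the 151 bases around the replicate 1 summit of its start region, *Gjc1* held 11 CpG dinucleotides, as did *Gja4*, above the median of 8 over all regions at starts. The same windows held 4 at *Gja1* and 2 at the downstream start of *Gja5*, and 13 at *Gja3*, 17 at *Gjb2* and 19 at *Gjd2*.

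A shared region overlapped 47.9% of RefSeq promoters. In the group richest in CpG, with 17 to 56 dinucleotides, it was 94.1%, and the fold enrichment there had medians of 29.1 and 29.4 in replicates 1 and 2. In the group with 3 to 6 it was 26.0%, with medians of 12.5 and 11.8. The CpG-rich connexin promoters were overlapped like most of their kind but stood low among them. *Gjd2* ranked above 2.24% and 3.67% of overlapped promoters of the richest group, *Gjb2* above 1.99% and 0.646%, and *Gja3* above 6.52% and 3.67%. *Gja1* ranked above 67.5% and 65.1% of overlapped promoters in its own group. *Gja4* and *Gja5*, in the group with 7 to 16 dinucleotides and medians of 22.8 and 23.1, ranked above 24.8% and 23.4%, and above 11.2% and 8.70%.

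**Figure D2:**
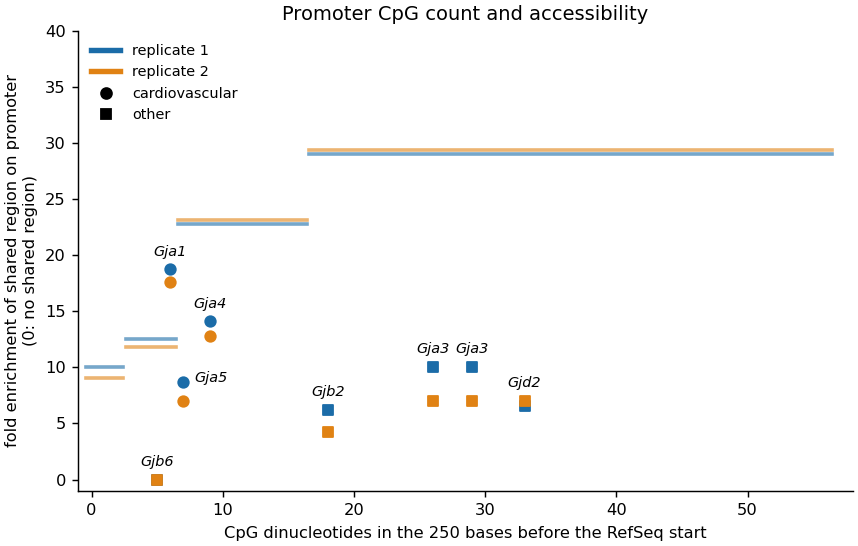
Number of CpG dinucleotides in the 250 bases before the RefSeq start (x) against the fold enrichment of the shared region overlapping them (y, linear, 0 where none does), with replicate 1 in blue and replicate 2 in orange, circles for cardiovascular and squares for other members. Horizontal lines are the medians over all overlapped promoters in each of 4 CpG groups. *Gja1* lies above the lines of its group, and *Gja3* (2 promoters), *Gjb2* and *Gjd2* lie far below those of the richest group. *Gjc1* is not plotted.

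Beyond the starts, every member had at least 1 distal shared region, that is a region more than 1 kb from any annotated start, in the gene body or within 50 kb of it. Of all protein-coding genes, 82.3% had one, so this does not set connexins apart. Together the 8 windows held 58 shared regions in 923.8 kb, of which 38 were distal, 10 lay at a member's start and 10 at the start of another gene only. The cardiovascular windows held 41 regions in 620.6 kb, or 6.61 per 100 kb, and the other windows held 17 in 303.2 kb, or 5.61 per 100 kb. The distal densities were 4.51 and 3.30 per 100 kb. The density of all 21938 genes had a median of 5.41 per 100 kb and quartiles of 2.42 and 8.95, and their distal density had a median of 2.74.

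This small gap hid a wide spread within each group. *Gja1* was the densest member with 14 regions, or 11.2 per 100 kb, above 85.2% of protein-coding genes. *Gjd2* followed with 11 regions, or 10.6 per 100 kb, above 82.7%. This order turned under stricter limits, with 7.99 per 100 kb at *Gja1* and 9.61 at *Gjd2* under a p-value limit of 0.00001, and with 5.59 and 6.73 under a q-value limit of 1e-10. *Gjc1* had 8 regions (6.66 per 100 kb), *Gja4* had 6 (5.85) and *Gja5* had 13 over its long gene body (4.77), all inside the quartiles of all genes. *Gjb2*, *Gja3* and *Gjb6* were the sparsest, at 4.71, 4.04 and 3.63 per 100 kb. With a reciprocal overlap of 50% or more, *Gjc1* kept 4 regions, or 3.33 per 100 kb, and became the sparsest of the 8.

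*Gja3*, *Gjb2* and *Gjb6* sit side by side on chromosome 14, and their windows overlap. Counted once, the 199.2 kb that these windows cover together held 6 regions, or 3.01 per 100 kb, of which 4 were distal. Without *Gja1*, the densest cardiovascular member, the cardiovascular windows held 27 regions in 495.5 kb, or 5.45 per 100 kb. This was below the 5.61 of the other members with *Gjd2*, so the order of these densities turns on *Gja1*. The distal densities kept their order without *Gja1*, at 3.63 against 3.30 per 100 kb. In the *Gjd2* window, 4 of the 11 regions lay at starts of *Actc1*, the cardiac alpha-actin gene, and of the non-coding gene *C130080G10Rik*. The strongest (chr2:114052547-114053564) measured 25.8 in replicate 1 and 22.1 in replicate 2, and the next (chr2:114053924-114054656) 25.8 and 21.6, and by mean only the *Gpr89* region exceeded them among the 58. Of these 4 regions, 2 rest on a single replicate 1 peak of 8105 bp that lies across *Actc1*.

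**Figure D3:**
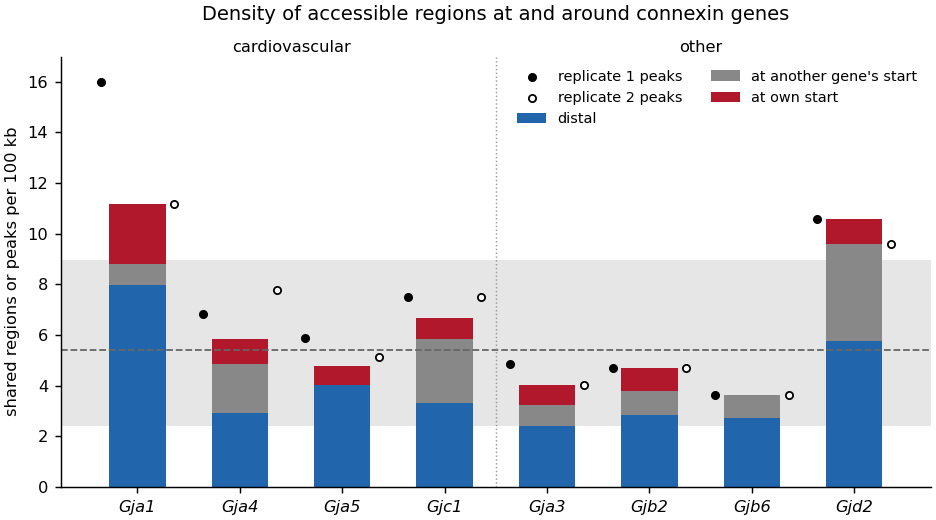
Shared regions per 100 kb of gene body and 50 kb on each side (stacked bars from 0, split into distal regions, regions at another gene's start and regions at the gene's own start). Black and white points are all peaks of replicate 1 and of replicate 2, the dashed line and grey band the median and quartiles over 21938 protein-coding genes. *Gja1* and *Gjd2* exceed the band, at 11.2 and 10.6, and the *Gjd2* bar holds 4 regions at another gene's start, the most of the 8 genes.

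Some peaks had no partner in the other replicate. Over the whole genome, 81.0% of replicate 1 peaks and 82.8% of replicate 2 peaks overlapped one. In the cardiovascular windows, 12 peaks were found in replicate 1 only and 4 in replicate 2 only, and in the other windows 2 and 0. None of them exceeded a fold enrichment of 4.89. Of the 12, 6 lay in the window of *Gja1*, which had 20 peaks in replicate 1 and 14 in replicate 2.

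The distal regions of *Gja5* were the most numerous, 11 in all, more than at 86.9% of protein-coding genes, and all but 1 lay inside its gene body of 172724 bp. Per 100 kb this was 4.03, above 65.8% of genes and below the 7.99 of *Gja1* and the 5.77 of *Gjd2*. The strongest (chr3:97062796-97063337) measured 17.9 in replicate 1 and 11.8 in replicate 2. It lies in an intron of *Gja5* and of the gene *4930573H18Rik*, 30.6 kb downstream of the nearest *Gja5* start. A region of 881 bp (chr3:96953654-96954534) in an intron measured 13.9 and 12.1, and another intronic region (chr3:96970987-96971556) measured 9.78 and 11.3. All 3 exceeded the values of 8.69 and 7.04 at the downstream *Gja5* start. The first of them was above 96.2% of distal regions of the genome in replicate 1 and 89.9% in replicate 2, and which of the first and the second was stronger differed between replicates. One distal region (chr3:97051113-97051680, 7.33 and 8.80) consists wholly of *Gja5* coding sequence.

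*Gja1* had 10 distal regions, more than 84.1% of protein-coding genes. The strongest (chr10:56385285-56385783), in an intron 6.42 kb past the nearest start, measured 11.4 in replicate 1 and 8.80 in replicate 2 and was first in both. It exceeded 86.7% and 80.9% of distal regions of the genome. The next by mean was a region 38.2 kb upstream (chr10:56339037-56339463), with 8.69 and 7.29, in which 87.4% of 32-base words are unique, the lowest of the 58 regions. The third, 3.99 kb upstream (chr10:56373160-56373676), measured 8.15 and 7.54, so that the order of these 2 regions differed between replicates. No distal region of *Gja1* reached its start value. Past the 3′ end, a region at the start of *Gm36595* measured 11.95 and 14.6.

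*Gja4* had 3 distal regions. The strongest (chr4:127288933-127289752, 820 bp) lay 24.5 kb downstream between genes and measured 13.3 in replicate 1 and 10.1 in replicate 2. This was nearly the 14.1 and 12.8 of the start, and it exceeded 91.1% and 85.7% of distal regions of the genome. Another (chr4:127263391-127264405), 50.1 kb downstream, measured 8.96 and 6.54. The third, 11.0 kb upstream (chr4:127324849-127325024), measured 4.62 and 4.02. A region at the start of *Gjb5*, an epithelial connexin gene in the same window, measured 4.07 and 5.53, lower than that of *Gja4* in both replicates.

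*Gjc1* had 4 distal regions. The strongest (chr11:102783344-102783895), 21.1 kb downstream, measured 7.06 in replicate 1 and 7.04 in replicate 2, above the values of its start in both and above 61.7% and 69.6% of distal regions of the genome. The others measured at most 4.89 and 4.53. All 4 lay on the side of *Adam11*, a neuronal gene of the metalloprotease family, which had 3 regions at its own starts. The strongest of these (chr11:102773912-102775114) measured 16.03 and 16.09, and the next (chr11:102761261-102761491) 4.89 and 3.77. The latter and the third (chr11:102761702-102761880) rest on a single replicate 1 peak of 670 bp, whose summit lies in neither. The upstream side of *Gjc1* held no shared region within 50 kb.

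**Figure D4:**
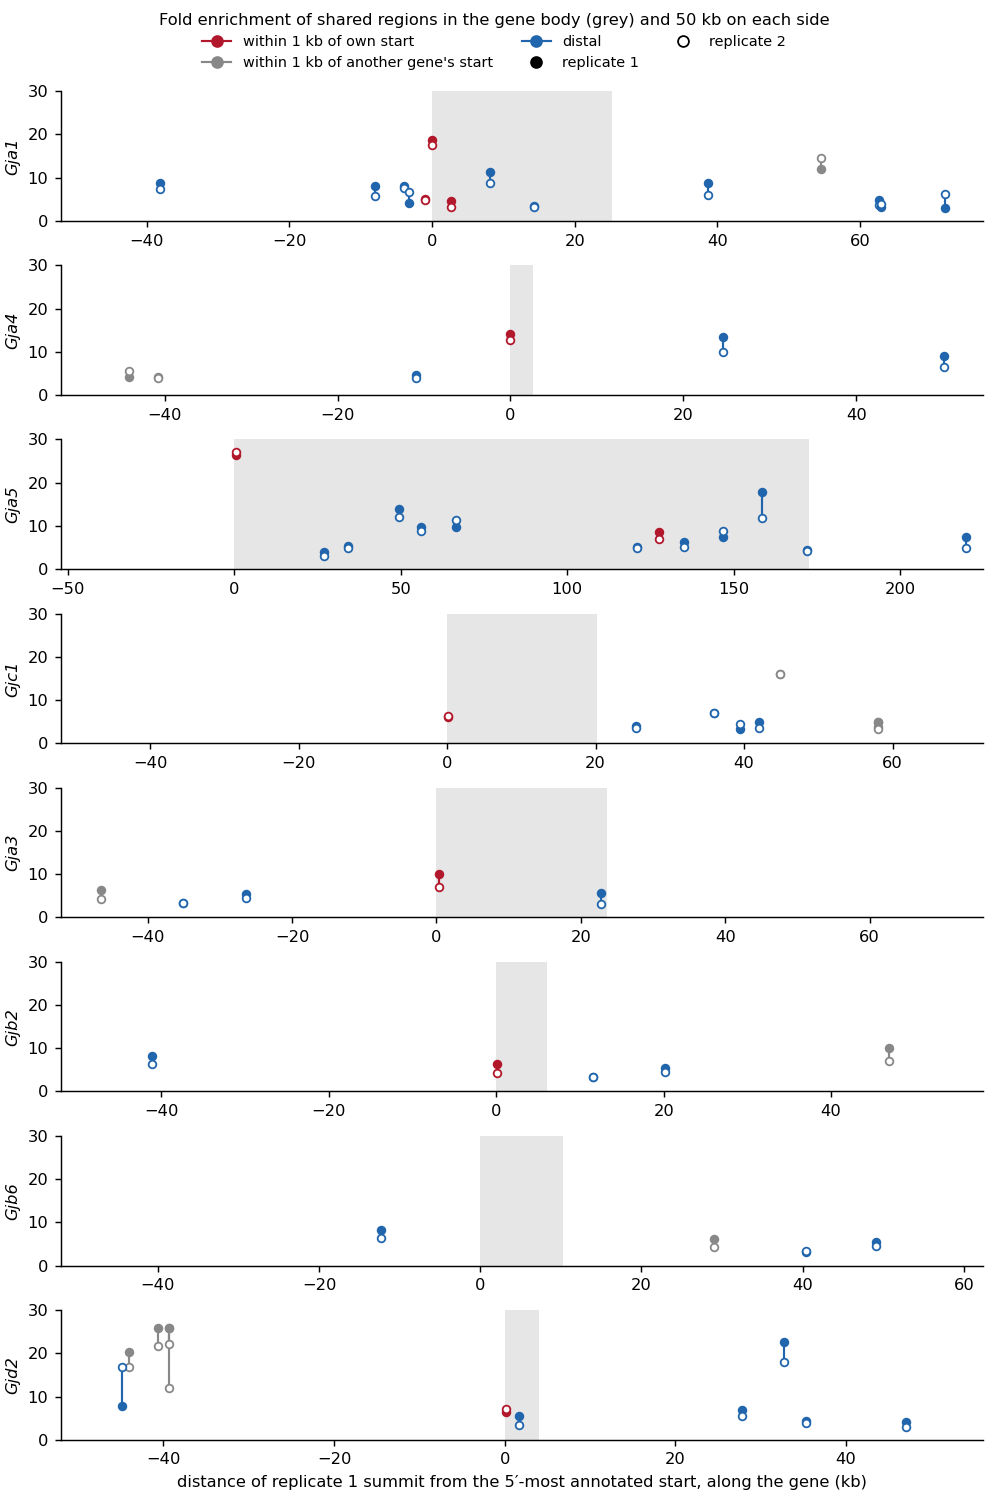
Fold enrichment (y, linear) of each shared region against the distance of its replicate 1 summit from the 5′-most annotated start along the gene (x, kb), with the gene body in grey, filled points for replicate 1 and open points for replicate 2. Red regions lie at the gene's own starts, grey ones at the start of another gene only and blue ones are distal. By the mean of both replicates, the strongest distal regions belong to *Gjd2* (22.5 and 18.1) and *Gja5* (17.9 and 11.8), and no red point is drawn for *Gjb6*.

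Among the other members, the strongest distal region of all belonged to *Gjd2*. It lay 32.8 kb downstream between genes (chr2:113980612-113981169) and measured 22.5 in replicate 1 and 18.1 in replicate 2, above 98.4% and 96.4% of distal regions of the genome. It exceeded the *Gjd2* start region in both replicates, by 22.5 to 6.52 and by 18.1 to 7.04. The second (chr2:114058112-114058634) measured 7.88 and 16.8, a wide gap, in which the replicate 2 value comes from a peak of 1462 bp that also spans the *C130080G10Rik* region. The third (chr2:113985009-113985975) measured 6.79 and 5.53. The nearest protein-coding start to the first and the third is that of *Gjd2* itself.

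The 3 genes of chromosome 14 shared most of their distal regions. The strongest (chr14:57145652-57146115), with 8.15 in replicate 1 and 6.28 in replicate 2, lay 12.3 kb upstream of *Gjb6* and 41.2 kb upstream of *Gjb2*. A region between *Gja3* and *Gjb2* (chr14:57084223-57084639) measured 5.43 and 4.53, and another nearby (chr14:57093130-57093294) measured 3.26 and 3.27. The last, at the 3′ end of *Gja3* (chr14:57035090-57035360), measured 5.70 and 3.02. Of these 4 regions, 3 were below the genome-wide medians of distal regions, 5.98 and 5.28, in both replicates, and the first was above in both.

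The median distal value was 6.65 in replicate 1 and 5.91 in replicate 2 for the cardiovascular members, and 5.57 and 4.15 for the others. Both replicates gave this order. The regions of a window are not independent replicates, and the ranges overlapped throughout, from 2.99 at *Gja1* to 17.9 at *Gja5* and from 3.26 to 22.5 at the others in replicate 1.

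The distal windows of the members were searched on both strands for short motifs of factors known from the heart. AGATAA of GATA factors was present in 5 of 38 windows (13.2%), against 16.6% of 74141 distal windows of the genome. GGAATG of TEAD factors was in 5 (13.2%, against 12.8%), and TNAAGTG of NKX2-5 in 4 (10.5%, against 10.05%). AGGTGTG of T-box factors was in 0, against 2.58%, and TATTTATA of MEF2 in 0, against 1.23%. CCGGAAGT of ETS factors was in 1 (2.63%, against 0.236%) and GGGCGG of SP and KLF factors in 2 (5.26%, against 5.60%). Of the 5 windows with the GATA letters, 4 belonged to *Gja1* and 1 to *Gja5*. Each share rests on at most 5 windows. In the promoters, GGGCGG was found in those of *Gja4*, *Gja5*, *Gjb2* and *Gjd2*, as in 32.7% of all promoters, AGATAA in that of *Gja1* (9.99% of all) and TNAAGTG in that of *Gjb6* (10.1%). One of the *Gja3* promoters held TATTTATA, as did 1.56% of all.

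Of the remaining 12 connexin genes of the annotation, 5 had a shared region at a start, against the 67.6% of all protein-coding genes. Their highest start values had a median of 4.62 in replicate 1 and 5.53 in replicate 2. Of 3 pannexin genes, which encode channel proteins of similar shape, 2 had a region. Genes of junction proteins that accompany connexins at the intercalated disc, such as *Tjp1* and *Dsp*, had one in 13 of 13 cases, with median start values of 25.3 in replicate 1 and 25.1 in replicate 2, close to those of all genes. Of the 8 members, only *Gja5*, through the region it shares with *Gpr89*, reached that level.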

How the data were processed

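ATAC-seq was performed on wildtype FVB hearts at E11.5 (2 replicates, each of 2 hearts). Per the methods, the authors trimmed single-end reads with Trim Galore 0.6.6 and Cutadapt, aligned them to GRCm38/mm10 with Bowtie2 2.4.2 and used SAMtools 1.12 to drop duplicated and poorly mapped reads. MACS2 was then run on each replicate separately, without a local background. Removal of poorly mapped reads lowers coverage of repeats. The deposited lists hold, per peak, a fold enrichment (a ratio), −log10 p-values, −log10 q-values and a score, and they were used as deposited. Depth is not given in the lists.

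Shared regions were the parts of replicate 1 peaks covered by replicate 2 peaks (at least 1 bp, touching parts merged), and each took the highest fold enrichment of the overlapping peaks of each replicate. Starts came from all GENCODE M21 transcripts, with 1 kb on each side, and loci were gene bodies with 50 kb on each side. Distal regions lay outside every start window. The text names all 8 members, each shared region at their starts, the 3 strongest regions elsewhere in each locus by mean, and genes with a start near these regions. Further regions, and listed genes given as examples, were named after their values were seen. Some results are not reported here. The members and lists were chosen with earlier results of these data known. Both replicates form 1 group, so values are described without tests, beside those of all protein-coding genes. Whether replicates share a litter is not given in the sources used here. RefSeq promoters (GRCm38.p6) matched 7 of 8 members. The alternatives were a reciprocal overlap of 50%, limits on p and q, each replicate alone, whole replicate 2 peaks, coding starts only, and other window sizes. Overlap code was tested on simulated data. The software was pandas 2.3.3 with NumPy 2.4.6 and pysam 0.24.0 in Python 3.11.15, and Matplotlib 3.10.9.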

Additional observations from a re-analysis of the deposited data

How the results depend on the processing

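Of 81 values recomputed under other settings, not counting the 4 from alternatives chosen after seeing the data, 64 moved by less than 1.5 times (for densities, by less than 1 SD between the replicates) and 17 moved further. All 4 cardiovascular connexins had a region at a start under every alternative, and 3 of the others under all but the q-value limit of 1e-10, where *Gjb2* was lost and 2 remained.

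Under that limit, 20 cardiovascular and 9 other regions remained, of which 13 and 3 were distal, with densities of 3.22 and 2.97 per 100 kb. Under the p-value limit of 0.00001 the densities were 5.48 and 4.62, and a reciprocal overlap of 50% or more gave 5.64 and 4.95. With 100 kb on each side, the cardiovascular windows held 65 regions (45 distal), and the density around the other members was 3.78. With 25 kb, the other windows held 9 regions (6 distal) at 4.43 per 100 kb. With replicate 2 alone or replicate 1 alone, the cardiovascular density ranged from 7.25 to 8.38 per 100 kb. Leaving out the densest gene of each group, an alternative chosen after seeing the data, gave 5.45 per 100 kb for the cardiovascular members (without *Gja1*) and 3.01 for the others (without *Gjd2*). With *Gja1* alone left out, the cardiovascular density was below the 5.61 of the others, the opposite order. The ratio of the cardiovascular to the other density was 1.18 as reported and between 1.09 and 1.69 under the other settings with all 8 genes. Replacing the region shared with *Gpr89* by that at the downstream start of *Gja5*, likewise chosen after seeing the data, lowered the median cardiovascular start value of replicate 1 from 16.4 to 11.4 and that of replicate 2 from 15.2 to 9.93.

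No paired analysis was possible because both replicates belong to a single group. The lists held no fold enrichment under 2.72 in replicate 1 and 2.51 in replicate 2, and weaker accessibility was not measured.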
